A study of Mus musculus with 34 samples.

Results

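The genes described here encode the proteins of the cytosolic ribosome. They were chosen by name, as the probe sets whose symbol starts with Rpl or Rps followed by a digit, p or a, without the Rps6k kinases, with the probe set of highest mean signal standing for each gene. The rule found 35 genes on 49 probe sets, out of 8251 genes named by a single symbol on the array. Of the 35, 17 belong to the large subunit and 18 to the small subunit. A further 39 probe sets list several symbols, at least 1 of them a ribosomal protein gene, and are described only as an unnamed group.

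By their titles and source names, the arrays measured mouse macrophages grown from bone marrow, whose genotype, LPS exposure and added cytokine varied. A description field shared by all arrays names embryos instead, and was not followed. Resting cells were read on 4 arrays, for which the labels give no genotype. Stimulated groups came from 3 genotypes (wild type, IL-10-/- and IL-6-/-). Each genotype was given 100 ng/ml LPS by itself or together with 10 ng/ml IL-10, both read after 45 and 180 min, or together with 2 ng/ml IL-6, read after 45 min. Each stimulated group held 2 arrays, except IL-6-/- with LPS alone, which held 1 at each time. All cells had 7 days of culture and a rest of 1 h. Medium conditioned by L cells was named for the resting arrays and mCSF for the stimulated ones. The medium and the stimulation therefore cannot be told apart. The titles call the arrays biological replicates, and the number of mice is not stated, so p-values measure only the spread between these arrays. LPS is a bacterial cell wall component sensed by Toll-like receptor 4, IL-10 is a cytokine that restrains macrophage activation, and IL-6 is an inflammatory cytokine that shares the STAT3 route with IL-10. In all, 32 arrays fell into 16 groups, and 2 arrays could not be assigned.

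Ribosomal proteins fold together with ribosomal RNA in the nucleolus into a small subunit, which reads the messenger RNA, and a large subunit, which joins the amino acids. Their messengers are among the most abundant of the cell, and in mammals most carry a run of pyrimidines right at the 5′ end, the TOP element, through which mTOR and Larp1 set how strongly they are translated. Macrophages that meet LPS shift their messengers and their translation towards inflammatory products within hours.

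To show that 5′ end, the stretch around the annotated start is given for the members that changed in wild type after 180 min of LPS and had a promoter in the RefSeq table (build GRCm38.p6). Each sequence runs 5′ to 3′ on the gene's strand, with 40 bases before the start and 15 from the start on. Capitals mark the longest run of C or T that touches the 10 bases on either side of the start. The first 9 genes fell and Rpl39l rose.
Rpl13a: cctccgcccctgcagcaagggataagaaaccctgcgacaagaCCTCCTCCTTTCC
Rpl41: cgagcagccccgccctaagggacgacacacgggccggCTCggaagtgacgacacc
Rpl6: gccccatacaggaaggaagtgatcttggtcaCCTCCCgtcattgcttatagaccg
Rps18: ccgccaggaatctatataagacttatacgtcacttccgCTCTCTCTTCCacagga
Rpl19: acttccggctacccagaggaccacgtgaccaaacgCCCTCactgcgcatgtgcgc
Rpl7a: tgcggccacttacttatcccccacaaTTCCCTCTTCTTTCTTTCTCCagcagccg
Rps7: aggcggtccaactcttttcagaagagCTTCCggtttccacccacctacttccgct
Rpl10a: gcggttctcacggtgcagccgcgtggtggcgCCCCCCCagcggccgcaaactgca
Rps3: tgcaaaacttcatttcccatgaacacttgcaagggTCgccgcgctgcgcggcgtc
Rpl39l: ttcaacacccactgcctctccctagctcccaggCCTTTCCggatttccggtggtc

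In order, these windows lie at chr7:45128731-45128785, chr10:128549154-128549208, chr5:121204461-121204515, chr17:33955651-33955705, chr11:98026670-98026724, chr2:26910767-26910821, chr12:28635939-28635993, chr17:28328431-28328485, chr7:99483695-99483749 and chr16:10170188-10170242. Rpl10a, Rpl19, Rpl39l, Rpl6 and Rpl7a are read from the plus strand and the others from the minus strand. The run was 21 letters long in Rpl7a, 14 in Rpl13a, where it continues past the printed stretch, 11 in Rps18 and 2 in Rps3. Of the 35 members, 28 had a promoter in the table. A run of at least 8 letters was found in 9 of the 28 (32.1%) and in 13.5% of all 27025 genes in the table. Over the whole 300-base window (250 before the start, 50 from it on), CCGGAAG on either strand, the core that ETS factors bind, was found in 12 of the 28 members (42.9%) and in 9.12% of all genes. AAGATGG on either strand, the core of the YY1 motif, was found in 6 of 28 (21.4%) against 6.48%. TATAAA within the 50 bases before the start, on the gene's strand, was found in 0 of 28 against 2.88% of all genes. These are counts of letters and say nothing of which factor binds.

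The values are MAS5 signals on a linear scale, which the authors had scaled so that the trimmed mean of each array was 500. On that scale the members fell into a bright and a dim set with nothing between. A mean signal of at least 1000 was reached by 21 genes, the lowest being Rpl13a and Rps27 at 1074 each. The other 14 had means of 409.8 (Rpl7l1, a paralogue that takes part in early large-subunit assembly) or less. The 5 highest means belonged to Rpl41 (43660), Rps24 (36860), Rps28 (34300), the stalk gene Rplp0 (24640) and the X-linked Rps4x (18540), and the 5 lowest to Rps27l (34.6), Rps14 (41.9), Rps15 (60.5), Rpl32 (60.5) and Rps20 (85.8). By their suffix, the probe sets of Rpl41 and Rps28 are shared by a gene family and those of Rpl7 and Rps4l by several transcripts, so their signal may include related genes. The second probe set of Rps24 had a mean of 137.6, against 36860 for the chosen one. These means rank probe sets, since a probe set's brightness depends on its own probes, and do not rank the transcripts. A gene entered the test where its signal reached 200 in at least 2 grouped arrays. All 21 bright genes and 6 of the dim ones passed (13 large-subunit and 14 small-subunit genes), and Rpl32, Rpl35a, Rpl38, Rpl39, Rps14, Rps15, Rps20 and Rps27l did not. Rps27l, a p53-responsive paralogue of Rps27, reached 167.8 at most.

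The bright members varied little between replicate arrays. Their within-group SD on the log2 scale had a median of 0.183 (0.088 for Rplp0 to 0.446 for Rps19), against 0.244 for all probe sets of mean signal 1000 or more and 0.331 for all 8224 tested. The 6 dim members that were tested had a median of 0.400. About their group means, the 21 bright genes also moved partly together: the median correlation over their 210 pairs was 0.256 on 32 arrays, from -0.57 to 0.94, with 150 pairs above 0. These arrays share a scaling step, and the pairs share genes, so this is a description only.

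Summed over the 35 genes, ribosomal protein signal made up 3.62 to 4.27% of all signal on the resting arrays. It lay at 3.31 to 3.81% in wild type after 45 min of LPS and at 3.03 to 3.11% after 180 min. The lowest values were those of IL-10-/- cells after 180 min, at 2.63 to 2.79% with LPS alone and 2.73 to 2.90% with IL-10 added. The resting arrays therefore overlapped wild type at 45 min and lay above every array of 180 min. The remaining group means ran downwards from 3.61% (wild type, LPS and IL-10, 45 min) to 3.07% (wild type, LPS and IL-10, 180 min), and the order of the groups is not firm: neighbours in it overlapped from resting cells down to IL-6-/- with 45 min of LPS. They did not overlap from there down to IL-6-/- with LPS and IL-10 at 180 min, nor between wild type and IL-10-/- with LPS and IL-10 at 180 min, and did elsewhere. In bulk RNA, fewer cells of a type and less of a transcript per cell cannot be told apart.

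**Figure D1:**
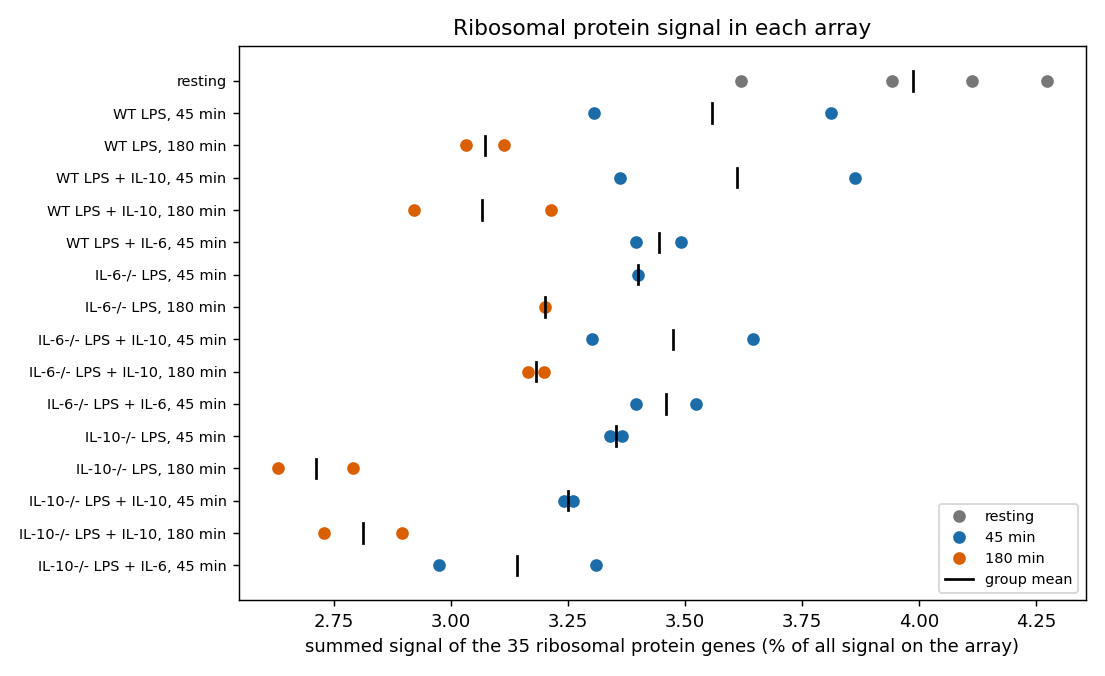
Each point is an array and gives the summed signal of the 35 ribosomal protein genes as a percentage of all signal on it, and black bars are group means. Resting arrays (grey) run from 3.62 to 4.27%, and within every genotype and treatment read at both times the arrays at 180 min (orange) lie below those at 45 min (blue).

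Some other measurements also differed between resting and stimulated arrays, in either direction, and others overlapped. Their part in the changes against resting was not tested. Macrophage markers were bright in both: 10 of 11 were tested and their summed signal was 144900 to 194600 at rest and 158100 to 209800 in stimulated cells. The 11 stromal markers, led by Bgn, Col1a2 and Fn1, summed to 1249 to 3821 at rest and to 9286 to 16410 in stimulated cells, and 9 of the 9 tested were higher at both times, with Thy1 never above 105.2. The 8 lymphocyte markers, of which 4 were tested, had a summed signal of 2776 to 4196 at rest, 2462 to 3128 in wild type after 45 min of LPS and 1334 to 1576 after 180 min. Of the T cell genes, Cd3e, Cd3d, Cd3g and Cd8a never exceeded 117.1, while Cd4 ran from 270.8 to 767.5. Ighm reached 3467. The ratio of 3′ to 5′ signal of actin, a measure of RNA integrity and labelling, was 1.15 to 1.25 at rest and 1.28 to 2.51 in stimulated cells, and that of Gapdh 0.867 to 0.970 against 0.614 to 1.09.

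After 45 min of LPS in wild-type cells, Rpl19 and Rps18 were already lower than in resting cells, and the paralogues Rpl39l and Rps4l were higher. Rpl19, a large-subunit protein at the bridge to the small subunit, had signals of 21270, 22951, 20528 and 20379 at rest and 13824 and 13160 after LPS. The groups did not overlap, and the log2 change was -0.65 ± 0.12 (SE throughout; adjusted p = 0.000571). Rps18, a protein of the small-subunit head, had 24519, 29826, 22316 and 26563 at rest and 18778 and 18448 after LPS, again with no overlap (-0.46 ± 0.13, adjusted p = 0.0154). Gene p-values come from limma with Benjamini-Hochberg adjustment across the 8224 probe sets tested, and changes are on the log2(signal + 50) scale. Among called genes, a lack of overlap comes from the same arrays as the call and adds no support to it. It was not counted over all probe sets.

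In this comparison 2 of the 27 tested members rose (9.00% of all probe sets did) and 2 fell (7.75% of all), so the count is close to the background in both directions. The median change of the members was -0.18, against 0.03 over all probe sets tested, and 16 of the 21 bright genes were below 0, against 51.7% of all probe sets as bright. Of the genes described throughout, Rpl13a (-0.64), Rps19 (-0.56), Rps3 (-0.37), Rpsa (-0.25), Rplp0 (-0.18), Rps4x (0.20) and Rpl22 (0.40) did not pass. With each array centred on its median, 1 member rose and 4 fell. Without LPS replicate 1 the calls dropped from 4 to 2, both lower.

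By 180 min of LPS 10 bright members were lower than at rest: Rpl13a, Rpl41, Rpl6, Rps18, Rpl19, Rpl7a, Rps7, Rpl10a, Rps3 and Rpl8. Large-subunit genes supplied 7 of them, out of 13 tested, and small-subunit genes 3 of 14; the difference between the subunits was not tested. Rpl39l alone rose.

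Among the large-subunit genes, Rpl13a had the largest fall. Its protein is also known from the GAIT complex, which silences inflammatory messengers in myeloid cells. Its signals were 1428, 2130, 1130 and 1632 at rest and 968 and 440 after 180 min, so the groups did not overlap but both were widely spread (-1.17 ± 0.27, adjusted p = 0.00161). Without LPS replicate 2, the array of the lower value, the change was -0.64 and did not pass (adjusted p = 0.151).

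Rpl41, the smallest ribosomal protein, whose only probe set is a family-shared one, fell by 0.71 ± 0.18 (adjusted p = 0.0029). Its signals were 66410, 72958, 49270 and 54781 at rest and 34919 and 38625 after LPS. Rpl19 stayed low at 13053 and 14688 (-0.62 ± 0.12, adjusted p = 0.000345), with both arrays below all resting ones. Its second, dim probe set (mean 209.9) did not move with it: averaged over both probe sets the change of Rpl19 was -0.08 and did not pass.

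Rpl6, which binds ribosomal RNA expansion segments, had 15035, 11740, 14301 and 11355 at rest and 10751 and 6115 after LPS. The higher LPS array came close to the resting range, and the call (-0.68 ± 0.20, adjusted p = 0.0106) was lost without LPS replicate 2 (adjusted p = 0.438). Rpl7a fell by 0.48 ± 0.17 (0.0303), Rpl10a, near the exit site of tRNA, by 0.43 ± 0.16 (0.0364) and Rpl8, near the peptidyl transferase centre, by 0.40 ± 0.13 (0.0177), the values in brackets being adjusted p-values from limma. None of these 3 overlapped its resting arrays. Of the 6 fits that left out 1 array, Rpl7a and Rpl10a each passed in 3 (adjusted p up to 0.288 and 0.165) and Rpl8 in 4 (up to 0.0965).

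Among the small-subunit genes that were called, Rps18 had the largest fall, to signals of 15088 and 17678 (-0.65 ± 0.13, adjusted p = 0.000316). Rps7, which also binds the p53 regulator Mdm2, had 17955, 16524, 16244 and 15018 at rest and 13191 and 11143 after LPS (-0.43 ± 0.16, adjusted p = 0.0435). Rps3, at the messenger entry and also known as a partner of NF-kappaB p65, had 18900, 18108, 16623 and 20104 at rest and 13445 and 14005 after LPS (-0.42 ± 0.13, adjusted p = 0.0158). In all 3 genes both LPS arrays lay below every resting array. Rps7 passed in 1 and Rps3 in 4 of the 6 fits that left out 1 array, with adjusted p up to 0.322 and 0.11.

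**Figure D2:**
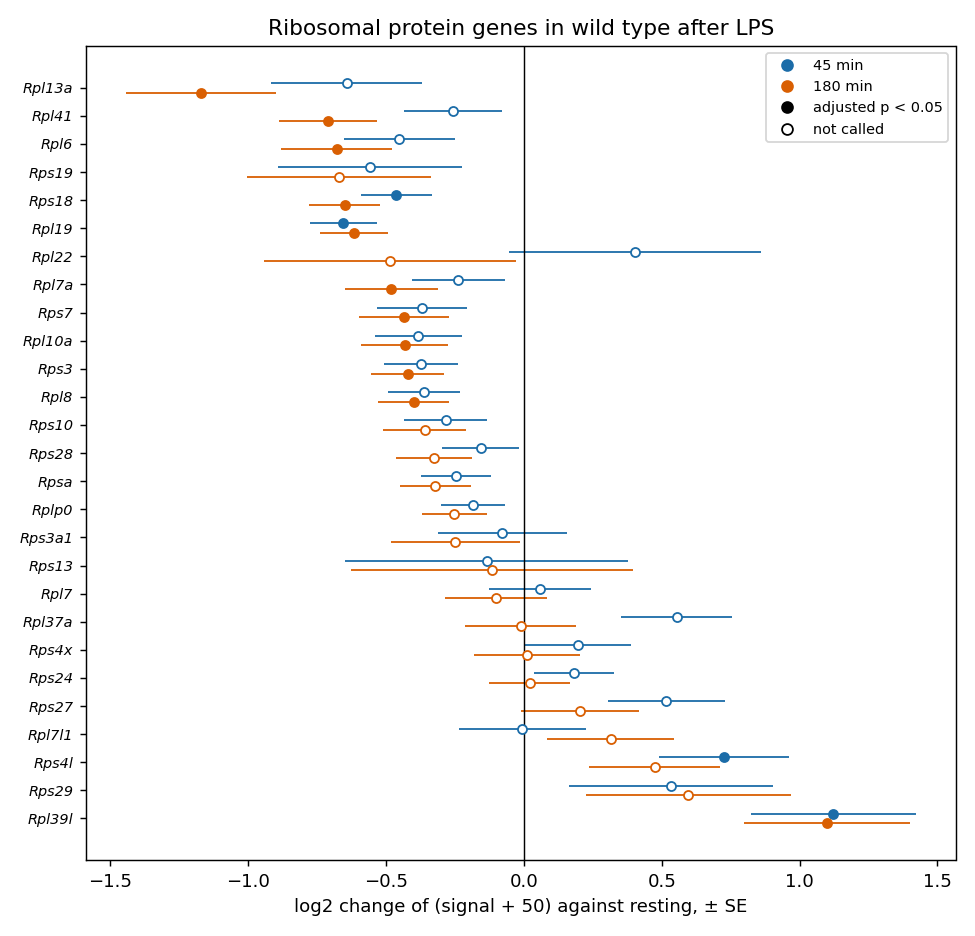
Log2 change of (signal + 50) against the 4 resting arrays, with SE bars, for the 27 tested genes in wild type after 45 min (blue, 2 arrays) and 180 min (orange, 2 arrays) of LPS, with filled points for adjusted p under 0.05. At 180 min 10 genes lie to the left as filled points and Rpl39l lies alone to the right at 1.10.

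The 10 falls are 37.0% of the 27 members, against 19.4% of all probe sets called lower, and the 1 rise compares with 14.4% called higher. Bright probe sets were called more often: 29.6% of the 1891 probe sets with a mean of 1000 or more fell, and 10 of the 21 bright members did (47.6%). The median change was -0.33 for the members and -0.40 for the bright ones, against -0.09 over all probe sets tested and -0.09 over all bright ones. The direction of the median held under quantile normalization (-0.38) and under centring on the array median (-0.26), while the falls counted 13 and 5. Leaving out LPS replicate 1 left 7 calls of 11 (6 lower), and leaving out LPS replicate 2 left 4, all lower. Rpl19, Rps18 and Rpl41 passed in each of the 6 fits that left out 1 array.

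Rplp0, the base of the stalk that recruits elongation factors, had 34394, 30718, 28209 and 28376 at rest and 24618 and 26321 after LPS, with no overlap but an adjusted p of 0.105 from limma (-0.25 ± 0.12). Rpsa, also known as the laminin receptor, had 4161, 4396, 4741 and 4091 at rest and 3315 and 3621 after LPS (-0.32 ± 0.13, adjusted p = 0.0569). Neither gene was called. A lack of overlap was not counted over all probe sets, so here it is a description only.

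Rps19, mutated in Diamond-Blackfan anaemia, gave -0.67 ± 0.33 (adjusted p = 0.132) with overlapping arrays. Rps4x had 18839, 19854, 15349 and 14548 at rest and 19649 and 14962 after LPS (0.01 ± 0.19, 95% interval -0.39 to 0.41). Rps24 (0.02 ± 0.15) and Rpl37a (-0.01 ± 0.20) were likewise near 0, and Rps27 was at 0.20 ± 0.21. The bright genes ran from -1.17 to 0.20.

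The 2 paralogues that rose are dim. Rpl39l, a paralogue of Rpl39 best known from testis, had 68.2, 82.5, 53.4 and 244.4 at rest, 318.3 and 230.9 at 45 min and 237.0 and 299.5 at 180 min of LPS. A single resting array lay inside the stimulated range. The changes were 1.12 ± 0.30 at 45 min (adjusted p = 0.0117) and 1.10 ± 0.30 at 180 min (adjusted p = 0.0058). It was lost without LPS replicate 1 at 45 min (0.152) and without LPS replicate 2 at 180 min (0.0819), and its size ran from 1.44 and 1.41 to 0.64 and 0.62 between pseudocounts of 10 and 200. Across all stimulated groups Rpl39l had means of 196.7 to 409.8, the highest in IL-10-/- at 180 min, against 112.1 at rest.

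Rps4l, an autosomal paralogue of Rps4x, had 291.0, 207.9, 279.4 and 124.3 at rest and 344.0 and 443.6 at 45 min (0.73 ± 0.24, adjusted p = 0.0367), and was not called at 180 min (0.47, adjusted p = 0.132). It lost the call in 4 of 6 fits that left out 1 array, with adjusted p up to 0.28. Its other probe set (mean 172) was at -0.10 at 45 min (adjusted p = 0.901). Rpl39l entered the test through its stimulated arrays, since a single resting array reached 200, so its rise supports nothing about the family.

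Where a gene had several probe sets, 10 genes in all, they did not always give the same call. The chosen, family-shared probe set of Rps28 was not called at 180 min (-0.33, adjusted p = 0.0761), while its second one (mean 19470) fell by 0.53 at 45 min (adjusted p = 0.00883) and by 0.77 at 180 min (7.82e-05, both from limma). Rpl10a was reversed in this respect: its chosen set fell at 180 min and its second set (mean 5302) was not called (-0.20, adjusted p = 0.435). Rpl22, which has a role in lymphocyte development, had 2 dim sets of opposite direction in IL-10-/- cells between 45 and 180 min of LPS. The second set rose by 1.63 (adjusted p = 0.00195), and the chosen one was at -1.4 (adjusted p = 0.0713). At 45 min of LPS in wild type the second set also rose, by 1.19 (adjusted p = 0.00916), where the chosen one gave 0.40.

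The 39 probe sets with several symbols were read in the same way. Of the 35 tested, 3 rose and 7 fell after 45 min of LPS in wild type, with a median of -0.15. After 180 min 1 rose and 12 fell, with a median of -0.31. All probe sets gave 9.00% higher and 7.75% lower at 45 min, and 14.4% and 19.4% at 180 min. Some of their symbols are likely to name members or pseudogenes of members, so they are not independent of the 27.

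The later time could also be set against the earlier one, without the resting arrays. In wild type with LPS alone no member was called between 45 and 180 min (6.77% of all probe sets were called higher and 7.13% lower). An unadjusted p under 0.05 was found in 2 of 27 members and in 2104 of all 8224 probe sets. The median of the members was -0.16 and that of all probe sets -0.14. Centring each array on its median moved them to -0.04 and -0.02, and turned the split of all 1143 calls from 48.7% higher into 62.5% higher. Rpl13a gave -0.53 ± 0.32 (adjusted p = 0.31) and Rps18 -0.19 ± 0.15 (adjusted p = 0.48). Rplp0, Rpsa, Rps3 and Rps4x lay between -0.18 and -0.05.

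In IL-10-/- cells 4 members were lower at 180 than at 45 min: Rps7, Rpl8, Rps18 and Rps3. Rps7 had 13014 and 13119 at 45 min and 9596 and 7495 at 180 min (-0.62 ± 0.19, adjusted p = 0.0246). Rpl8 had 12760 and 13826 at 45 min and 9656 and 9345 at 180 min (-0.48 ± 0.15, adjusted p = 0.0259). Rps18 went from 15735 and 17220 to 11508 and 12234 (-0.47 ± 0.15, adjusted p = 0.0297), and Rps3 from 13672 and 14822 to 11829 and 9176 (-0.45 ± 0.15, adjusted p = 0.0451). In all 4 genes the arrays of the times did not overlap, which adds nothing to the calls, since the same arrays gave them.

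No member rose, and the 4 falls are 14.8% of 27 tested, against 10.5% of all probe sets called lower and 6.57% called higher. All 4 are bright, and among bright probe sets the share is no higher in the members: 19.0% of 21 fell, against 20.8% of 1891. The median was -0.32 for the members and 0.03 for all probe sets. The calls are fragile: 0 were left without any 1 of the IL-10-/- LPS arrays, except 2 without replicate 1 at 180 min, where 2 arrays then stood against 1. The difference of this time course between IL-10-/- and wild type was itself tested and called no member (1.12% of all probe sets were called). An unadjusted p under 0.05 was found in 3 of 27 members and in 915 of all 8224 probe sets. Rpl37a came nearest, at 1.17 ± 0.33 (adjusted p = 0.107), with -0.57 in wild type and 0.60 in IL-10-/-, neither of them called. Rps7, at -0.56 ± 0.27 (adjusted p = 0.449), and Rpl8, at -0.44 ± 0.21 (adjusted p = 0.441), were the others. In the main fit, the time course of the genotypes is thus not shown to differ.

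With IL-10 added to LPS, taking the mean over the 3 genotypes, 4 members were lower at 180 than at 45 min and none was higher. These were Rpl22 (-0.82 ± 0.31, adjusted p = 0.0408), Rpl13a (-0.61 ± 0.18, 0.0111), Rps18 (-0.30 ± 0.09, 0.00882) and Rps7 (-0.30 ± 0.11, 0.041), the second values being adjusted p-values from limma. Rpl13a ran from 968.5 to 1886 in the 6 arrays of 45 min and from 633.2 to 914.1 in the 6 of 180 min, with no overlap. The other 3 genes overlapped between the times. The 14.8% of members compares with 20.2% of all probe sets called lower and 12.5% called higher, and the median of -0.17 with -0.03.

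This count moved with single arrays and with the scaling. It was 14 under quantile normalization, all lower, and 2 under median centring. It fell to 1 without IL-6-/- replicate 1 at 45 min and rose to 7 without wild-type replicate 1 at 180 min. It was 2 without wild-type replicate 1 at 45 min, wild-type replicate 2 at 180 min, IL-6-/- replicate 2 at 180 min or IL-10-/- replicate 1 at 45 min. Rps18 passed in each of the 12 fits that left out 1 array, and Rpl13a in 11 of them. Rpl22 and Rps7 were each lost in 7 of the 12, with adjusted p up to 0.167 and 0.16. The second probe set of Rpl22, about as bright, was above 0 and not called (0.29, adjusted p = 0.327).

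**Figure D3:**
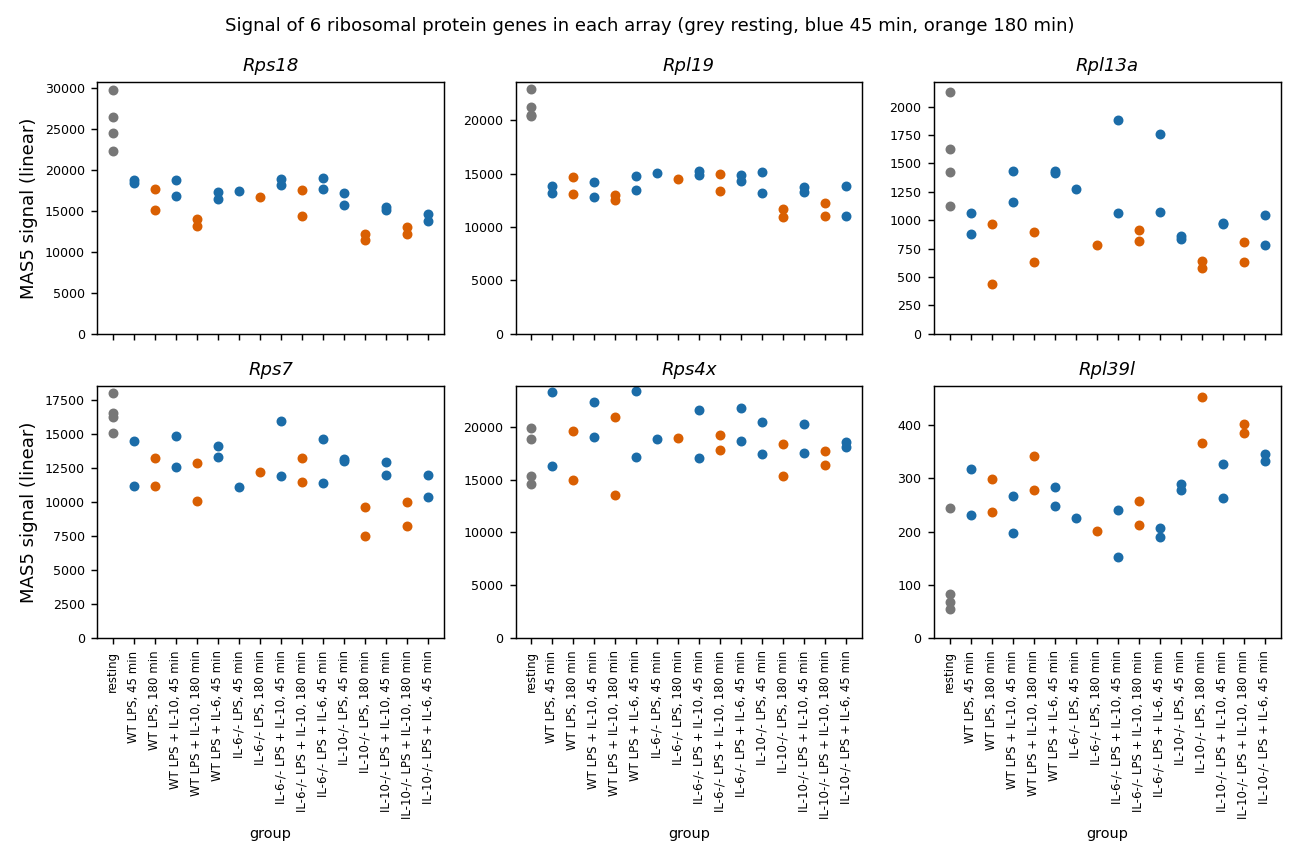
Linear MAS5 signal of 6 ribosomal protein genes in each of the 32 grouped arrays, ordered by group (grey resting, blue 45 min, orange 180 min), each panel with its own axis from 0. Rps18 and Rpl19 lie below every resting array in all stimulated arrays, and Rpl13a has lower group means at 180 than at 45 min in each genotype. Rps4x overlaps the resting arrays and has a lower mean at 180 min in 5 of 6 arms of genotype and treatment. Rpl39l is low in 3 of 4 resting arrays.

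Set out arm by arm, the summed share of ribosomal protein signal was lower at 180 than at 45 min with no overlap in 6 of 6 arms that had both times, of which IL-6-/- with LPS alone had 1 array at each time. The number of bright genes with a lower mean at 180 min was 20 of 21 in wild type with LPS, 21 with LPS and IL-10, 19 in both IL-10-/- arms, 15 in IL-6-/- with LPS and 17 in IL-6-/- with LPS and IL-10. Under LPS alone, 56.7% of bright and 61.1% of all probe sets were also lower in wild-type cells. The shares were 59.6% and 48.4% for IL-10-/- cells under LPS alone. With IL-10 added, as the mean over genotypes, they were 57.9% and 52.8%. No such share is given for the single arms with IL-10, for IL-6-/- with LPS, or for a fall in every arm. Of the 21 genes 11 were lower in all 6 arms, among them Rpl13a (-0.73 to -0.42), Rps18 (-0.47 to -0.06), Rpl7a (-0.35 to -0.18) and Rpsa (-0.35 to -0.08). A further 8 were lower in 5 arms, with Rpl41 (0.33) and Rpl8 (0.16) higher in the remaining one, and Rpl37a and Rps27 were lower in 2 and 3 arms. Summed signals of markers of other cells moved with time as well. Over all stimulated groups the 10 neutrophil markers summed to 575.8 to 1210 at 45 min and 1579 to 9748 at 180 min. Over all grouped arrays Lcn2 reached 6291, S100a8 3022 and the others at most 610.3, with Mpo and Ly6g at 146.4 or less. Of the 6 tested, 2 rose between the times in wild type with LPS alone (6.77% of all probe sets did). The other 4 were not called, and the median was -0.19. With IL-10 added, the 5 erythroid markers summed to 303.3 to 930.3 at 45 min and 1498 to 2175 at 180 min. Car2 reached 1534 and the other erythroid markers at most 544.2. Their part in the result was not tested. The arms share the scaling of the arrays and are given as a description.

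Across the groups, 12 of the 21 bright genes had a lower mean in all 15 stimulated groups than at rest: Rpl10a, Rpl13a, Rpl19, Rpl41, Rpl6, Rpl8, Rplp0, Rps18, Rps28, Rps3, Rps7 and Rpsa. Rps27 had a higher mean in all 15. The lowest group mean belonged to IL-10-/- with 180 min of LPS in 12 of the 21 genes and the highest to resting cells in 13. All 15 differences are taken from the same resting arrays, so they are not 15 separate results. No background over all probe sets is given for these counts, so they are a description only. The range over groups was narrow for Rps4x, whose highest group mean was 1.23 times the lowest, Rpl7 (1.27) and Rps24 (1.30). It was wide for Rps19 (2.89), Rpl13a (2.59) and Rps18 (2.17).

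**Figure D4:**
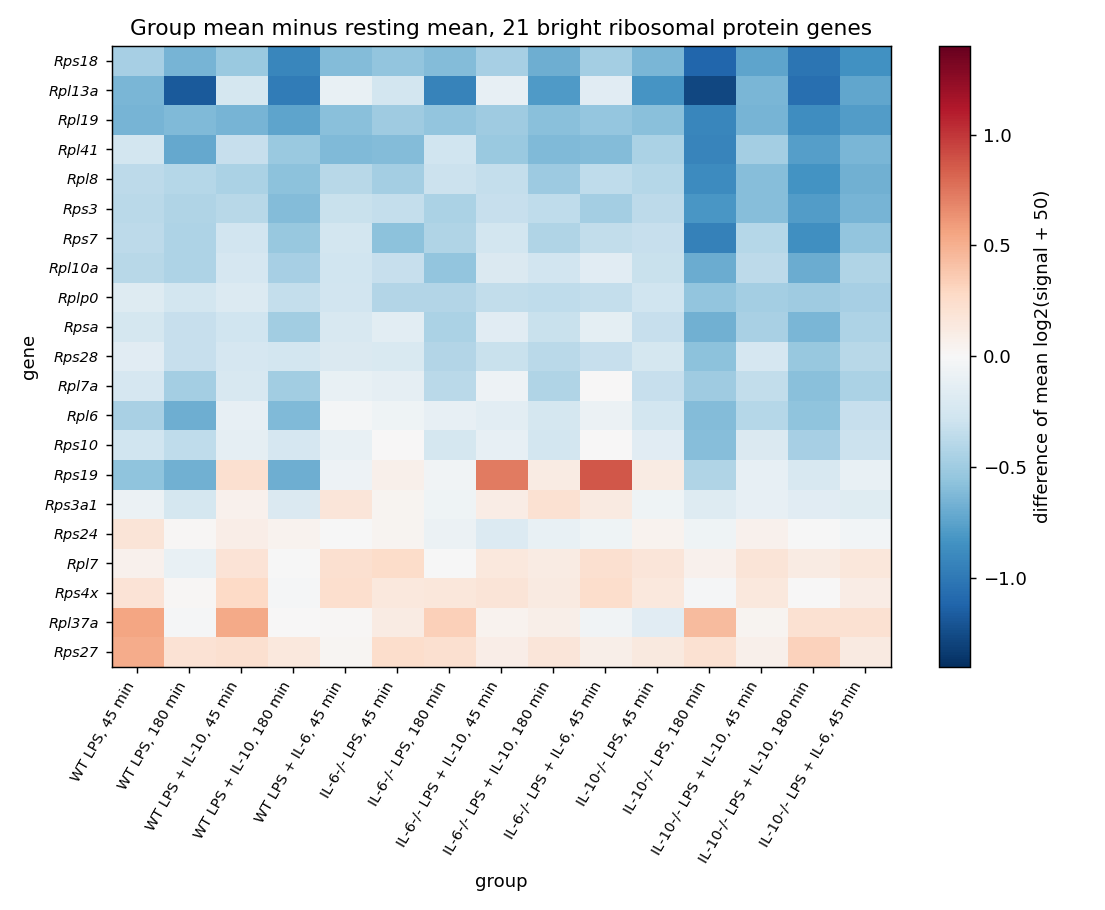
Difference between the mean log2(signal + 50) of each stimulated group and the resting mean for the 21 bright ribosomal protein genes, ordered by their mean difference, with blue for lower. The column of IL-10-/- with 180 min of LPS has a median of -0.59, the lowest of the 15, and Rps27, at the end, is above 0 in all 15.

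No member was called when either cytokine was added to LPS. With IL-10 at 45 min, as the mean over genotypes, no member was called in either direction (1.03% of all probe sets were; 0 members at an unadjusted p under 0.05), and the members ran from -0.17 to 0.40. The same held for IL-10 at 180 min as the mean over genotypes (3.82% of all; 0 unadjusted), in wild type alone (0.134% of all; 0 unadjusted) and in IL-10-/- alone (3.54% of all; 0 unadjusted). It held for IL-6 at 45 min as well (0.547% of all; 0 unadjusted). All of these are limma tests.

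The intervals say how large a change was still possible. Over all 27 members they reached from -0.72 to 0.90 for IL-10 at 45 min, from -1.26 to 0.87 for IL-10 at 180 min and from -0.91 to 0.85 for IL-6, as means over genotypes. For added IL-10 at 180 min over the 3 genotypes, Rplp0 had a 95% interval of -0.17 to 0.18 and Rpsa one of -0.19 to 0.19, with Rps3 at -0.02 (-0.22 to 0.18) and Rps18 at -0.08 (-0.28 to 0.11). Rpl13a, at 0.18, had a wider interval of -0.23 to 0.59, and Rps19, at 0.11, one of -0.38 to 0.61. For added IL-6 the interval of Rplp0 was -0.24 to 0.11 and that of Rps18 -0.29 to 0.10.

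The knockouts were compared with wild type in 4 ways, and the main fit called no member in any. A fit with a replicate block, given with the processing below, did call members in some, with no share over all probe sets beside it. Under 45 min of LPS, 0.377% of all probe sets were called in IL-10-/- against wild type. An unadjusted p under 0.05 was found in 1 of 27 members and in 663 of all 8224 probe sets. The member was Rpl37a, which had 5507 and 4728 in IL-10-/- and 10405 and 6739 in wild type (-0.71 ± 0.23, adjusted p = 0.323). Under 180 min of LPS 2.87% of all probe sets were called. Here 6 of 27 members had an unadjusted p under 0.05, as did 1012 of all 8224 probe sets. Rpl8 came nearest, with 9656 and 9345 in IL-10-/- and 13186 and 13317 in wild type (-0.48 ± 0.15, adjusted p = 0.0942), followed by Rps18 (-0.46 ± 0.15, adjusted p = 0.117). The median of the members was -0.10 there and that of all probe sets 0.04. The summed stromal markers moved with the genotype too, at 13130 to 16410 in IL-10-/-, 11470 to 14000 in wild type and 9286 to 10020 in IL-6-/-, and their part in these differences was not tested.

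Over the 3 arms with an added cytokine, 1.05% of all probe sets were called in IL-10-/- against wild type. An unadjusted p under 0.05 was found in 6 of 27 members and in 684 of all 8224 probe sets. The median was -0.15 for the members and -0.01 for all probe sets. Below 0 were 22 of 27 members, 934 of 1891 bright probe sets and 4283 of all 8224. Rplp0 was lower without overlap, from 20260 to 23050 in IL-10-/- and from 23980 to 27460 in wild type (-0.21 ± 0.08, adjusted p = 0.357). It was not called, and such a lack of overlap was not counted over all probe sets. In IL-6-/- against wild type 2.25% of all probe sets were called. Here 2 of 27 members had an unadjusted p under 0.05, as did 1167 of all 8224 probe sets. Rps19 was the nearer, from 5617 to 16290 in IL-6-/- and from 2952 to 9479 in wild type, with overlapping arrays (0.75 ± 0.22, adjusted p = 0.0794). At 45 min its means in IL-6-/- were 11800 (IL-10 added) and 12240 (IL-6 added), against 7834 and 6567 in wild type.

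Other genes of the translation machinery were read from lists by name. After 180 min of LPS in wild type, ribosome assembly and nucleolar genes went the other way from the ribosomal proteins: of 51 tested, 19 rose, 3 fell and 29 were not called, with a median of 0.47, against 14.4% called higher and 19.4% called lower over all probe sets. Rrs1, a large-subunit assembly factor, rose by 3.0 ± 0.28 (adjusted p = 8.17e-09), Nop58 and Nop56, the core proteins of box C/D snoRNPs, by 2.71 and 2.15, and Myc, a driver of ribosome production, by 2.46. Utp14a fell by 2.13. At 45 min 6 rose and 1 fell (9.00% and 7.75% over all probe sets), Myc the furthest, by 3.03 ± 0.26 (adjusted p = 5e-09). A test of the difference between the lists was not made.

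Mitochondrial ribosomal proteins, encoded in the nucleus for the separate ribosome of that organelle, had 0 rises and 6 falls among 56 tested at 45 min, and 2 rises and 20 falls at 180 min (median -0.36). Mrps12 was the lowest (-2.07 ± 0.36, adjusted p = 6.53e-05), followed by Mrpl34 (-1.35) and Mrpl4 (-1.05), and Mrpl52 rose by 1.62. Their 6 falls at 45 min are set against 7.75% of all probe sets called lower, and their 20 falls at 180 min against the same 19.4%.

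Initiation factors were mixed, with 7 rises and 6 falls among 34 at 180 min (median 0.15), near the 14.4% and 19.4% of all probe sets, which are also the background of the next counts. Eif4ebp2, a brake on cap-dependent initiation, fell by 2.36 ± 0.18 (adjusted p = 2.73e-10), and Eif3j1, Eif1a and Eif4g2 rose by 2.32, 2.18 and 2.04. Of 12 elongation and release factors 3 rose and 2 fell, among them the exchange factor gene Eef1b2 (-1.17) and the release factor genes Gspt1 (1.00) and Etf1 (0.92). Of 12 S6 kinase and mTOR pathway genes 3 rose and 5 fell. Sesn1, a stress-induced mTORC1 inhibitor, fell by 5.09 ± 0.34 (adjusted p = 2.18e-11) and Ddit4, another mTORC1 inhibitor, rose by 4.0 ± 0.34 (1.5e-09), the values in brackets being adjusted p-values from limma. Rps6kb2, a kinase of the ribosomal protein S6, fell by 2.17, and Pdcd4, which that pathway targets for degradation, by 1.89.

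Between 45 and 180 min with IL-10 added, Larp1, the protein that binds TOP messengers, rose by 1.14 ± 0.13 (adjusted p = 8.97e-08), and it rose by 1.13 ± 0.22 between the times with LPS alone in IL-10-/- (adjusted p = 0.000547) and by 1.02 ± 0.22 in wild type (adjusted p = 0.00183). Ddit4 was the list gene called for added IL-10 at 180 min (1.03 ± 0.24 over genotypes, adjusted p = 0.0134; 2.46 ± 0.39 in IL-10-/-, adjusted p = 0.0002), where no ribosomal protein gene was. It was also 1.90 lower on the log2 scale in IL-10-/- than in wild type under 180 min of LPS (-1.90 ± 0.39, adjusted p = 0.00529). Eif1a was the only list gene called for added IL-6 (0.78 ± 0.18, adjusted p = 0.0367).

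**Figure D5:**
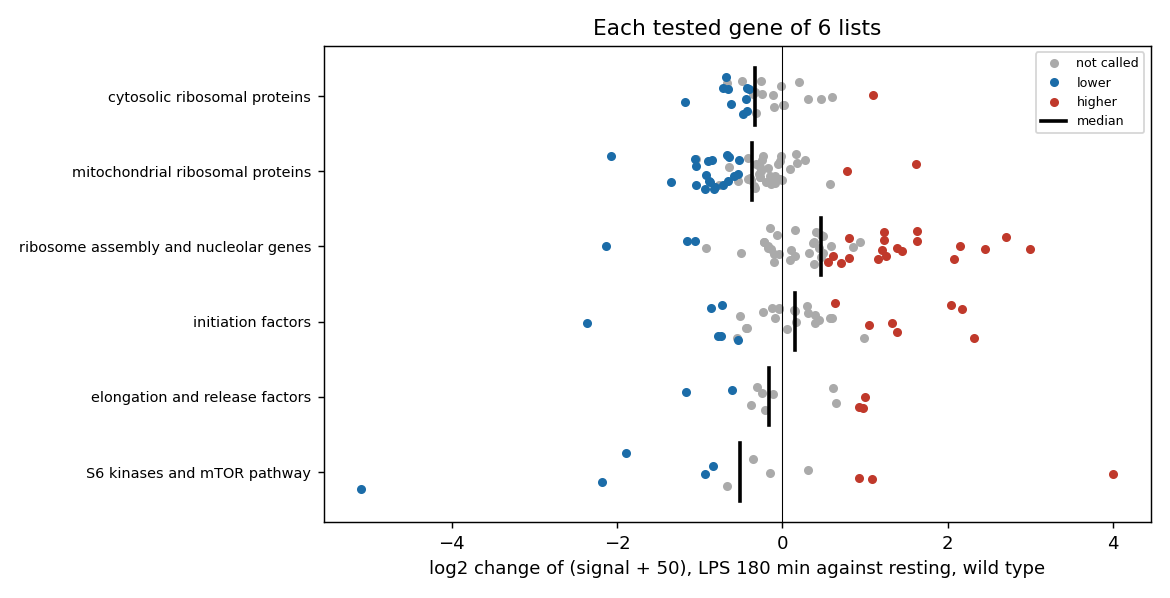
Each point is a tested gene, placed by its log2 change of (signal + 50) in wild type after 180 min of LPS against resting (the vertical spread within a list only separates points), coloured by call, with black bars for medians. The cytosolic and mitochondrial ribosomal proteins have medians of -0.33 and -0.36, and ribosome assembly and nucleolar genes one of 0.47.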

How the data were processed

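The intensity of each probe set of 34 MG-U74Av2 arrays was used as deposited by the authors (MAS5 signal, linear, version not given, per the submitters' processing notes). The 2% trimmed mean of each array lay between 500.29 and 500.4, so arrays were not scaled again; such scaling hides a change shared by most transcripts. Symbols came from a platform table and were matched by Entrez identifier to RefSeq (GRCm38.p6, names and promoters only). Control probe sets (66) were left out. On log2(signal + 50), a linear model with a mean for each group was fitted to 32 arrays with limma 3.58.1 in R 4.3.3 (eBayes with a trend, 16 residual and 7.58 prior degrees of freedom), with p-values 2-sided and Benjamini-Hochberg adjusted over the 8224 probe sets that reached 200 in 2 or more arrays, for 15 comparisons. A lone array is taken to vary as the others do. A call is an adjusted p under 0.05, and intervals are 95%. The fit was tested on simulated data. The members, the lists and the rule for named genes (in each comparison the called members of largest change, plus Rplp0, Rpsa, Rps3, Rpl13a, Rps19, Rps27l, Rpl22 and Rps4x throughout) were chosen with earlier results of these data known. The list of ribosomal proteins named otherwise had 1 gene on the array and 0 tested. Alternatives were other pseudocounts, filters and scalings, eBayes without a trend, a replicate block, averaging a gene's probe sets, and 30 fits that each left out 1 array.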

Additional observations from a re-analysis of the deposited data

Results flagged for a closer look

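Among the 4 resting arrays, 2 of the 35 members had a value far from the other 3, as chance alone gives in about 1 group of 20. Rpl39l had a signal of 244.4 in resting replicate 4 and 53.4 to 82.5 in the others. Without that array Rpl39l rose by 1.45 at 45 min and by 1.43 at 180 min of LPS in wild type, and both passed. Rpl8 had 19210 in resting replicate 2 and 16830 to 17100 in the others.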

How the results depend on the processing

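The count of members called was 4 after 45 min of LPS against resting (2 under quantile normalization, 2 to 6 with 1 array left out), 11 after 180 min (6 under median centring, 4 to 12) and 0 between these times in wild type (2 under quantile normalization, 0 to 1). It was 4 between the times in IL-10-/- (1 with no filter, 0 with eBayes without a trend, 0 to 2) and 4 with IL-10 added (2 with no filter, under median centring or without a trend, 14 under quantile normalization, 1 to 7). It was 0 in IL-10-/- against wild type under 180 min of LPS (1 under quantile normalization), and 0 to 1 with 1 array left out both for the difference between time courses and for IL-6-/- against wild type. In the other 7 comparisons tested, with 0 calls, no alternative made one. No value changed direction while called. Replicate numbers left the pairing of arrays unsettled: over 23 pairs within a genotype, deviations of same-numbered arrays correlated at 0.020 to 0.441 (median 0.120, all above 0, 13 over 0.1). Replicate 1 had the higher actin ratio in 13 of 13 stimulated groups with both numbers and the higher ribosomal share in 11. With the replicate block, which thus makes calls in comparisons that had none, the counts were 8 (45 min), 10 (IL-10-/- between times), 1 (difference), 7 (IL-10 added), 3 (IL-10-/- against wild type, 180 min) and 2 (IL-6-/- against wild type). No share over all probe sets is given for the replicate block, so its counts are a description only. Of single-gene results, 699 kept their side of the threshold, 91 lost the call and 22 gained it. Leaving out the lone IL-6-/- LPS arrays was not run. With 2 arrays a group, small changes of dim members are not resolved. The causes were not tested.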

Other observations

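The 2 arrays that could not be assigned were read as well. In the array whose title gives no genotype, ribosomal protein signal made up 3.64% of all signal, and 35 of 35 members lay within the range of the grouped arrays. In the array whose title and protocol disagree on the time, it made up 3.34%, and 33 of 35 lay within that range. Against the resting mean, the median of the 21 bright genes was -0.13 in the former and -0.23 in the latter on the log2 scale.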
